A study of Mus musculus with 10 samples.

Results

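The genes described here are 29 genes known as transcriptional targets of the coactivators YAP and TAZ, measured by RNA-seq in mouse esophageal epithelium. They were chosen by name, as the rows of the expression table whose gene symbol is one of these 29, and all 29 were found among the 56691 rows. The 10 libraries comprise 5 of the Mst1/2 knockout (KO; p63CreERT2;Mst1loxp/loxp;Mst2-/-) and 5 of the wild type (WT). Mst2 is deleted throughout the KO mice, whereas Mst1 carries loxP sites and is cut by CreERT2, a Cre that tamoxifen activates; p63 in its name marks basal cells of squamous epithelia. Both groups had been given tamoxifen, 3 doses of 100 mg/kg every 2 weeks, and were sampled about 8 weeks on; the labels list no Cre for WT. Neither age nor strain is stated in the sources used here. The labels do not say that each library is 1 mouse, so p-values reflect only how far these libraries differ, which may be technical. Values are FPKM, fragment numbers divided by gene length and library total, so that levels of different genes can be set side by side.

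In the Hippo pathway the kinases MST1 and MST2 activate LATS1 and LATS2, which phosphorylate YAP and TAZ and keep them out of the nucleus. In the nucleus YAP and TAZ bind DNA through TEAD transcription factors and raise a set of genes that includes matricellular proteins, regulators of the actin cytoskeleton and inhibitors of YAP itself. In squamous epithelia YAP and TAZ are known for acting in basal cells, in proliferation and wound repair. The question for these genes is therefore whether they were higher when both kinases were targeted.

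Libraries held an estimated 13070000 to 16440000 fragments, and correlations of log2 values over tested genes were 0.956 to 0.984 among KO, 0.955 to 0.979 among WT and 0.906 to 0.958 between KO and WT. Stk3, the gene of Mst2, was at 0.05 to 0.25 FPKM in KO and 2.08 to 3.48 FPKM in WT. Stk4, the gene of Mst1, was still read at 12.2 to 17.4 FPKM in KO and 16.96 to 22.7 FPKM in WT, and a value summed over the whole gene does not check the deletion of single exons. The defining markers of squamous cells were abundant in every library: Krt13 of the suprabasal layer was at 33902 to 38777 FPKM in KO and 34632 to 38781 FPKM in WT, and Krt5 of the basal layer at 1868 to 2825 FPKM in KO and 1275 to 2534 FPKM in WT.

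The target genes spanned the whole range from abundant to unread. Of the 29 genes, 7 had a mean over all libraries of at least 10 FPKM, 14 a mean of 1 to 10 FPKM, 4 a mean of 0.1 to 1 FPKM and 4 a mean under 0.1 FPKM. F3, the tissue factor that starts blood coagulation, was the most abundant, with a mean of 81.9 FPKM. The next were Gadd45b, a gene of the stress response, with 33.2 FPKM, and Ajuba, a LIM-domain protein of cell junctions that inhibits LATS kinases, with 23.8 FPKM. Fjx1, Rnd3, Axl and Amotl2 followed, with means of 11.4 to 15.2 FPKM.

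A common reporter of YAP in other cells, Ankrd1, was close to unread. Ankrd1, an ankyrin-repeat protein of striated muscle, was listed at 0, 0, 0.05, 0.08 and 0.05 FPKM in KO 1 to 5 and at 0, 0.02, 0, 0 and 0.08 FPKM in WT 1 to 5, which corresponds to at most about 3.8 fragments in a library. Foxf2, a transcription factor of mesenchyme, was listed at 0 in all 5 KO libraries and at no more than 0.03 FPKM in WT. Ccdc80, a secreted matrix protein, stayed at 0.02 FPKM or less in all libraries, and Amot, the founding angiomotin, at 0.04 FPKM or less. None of these 4 reached an estimated 5 fragments in any library, so a difference between KO and WT was not detectable at this depth. Of 12 genes that every cell uses, examined for comparison, none was listed at 0 in any library.

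Another 4 genes were read at a low level. Dock5, an exchange factor for Rac, was at 0.31 to 0.46 FPKM in KO and 0.21 to 0.81 FPKM in WT. Dlc1, a GTPase-activating protein, was at 0.14 to 0.34 FPKM in KO and 0.09 to 0.26 FPKM in WT. Tagln, the smooth muscle protein transgelin, was at 0.32 to 0.85 FPKM in KO and 0.16 to 0.49 FPKM in WT, and its exons overlap Pcsk7 and another gene on the opposite strand, from which its reads cannot be told apart without strand. Thbs1, thrombospondin 1, reached 1 FPKM only in KO 1, at 1.22 FPKM, and WT 1, at 1.53 FPKM. Groups overlapped for all 4 genes.

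**Figure D1:**
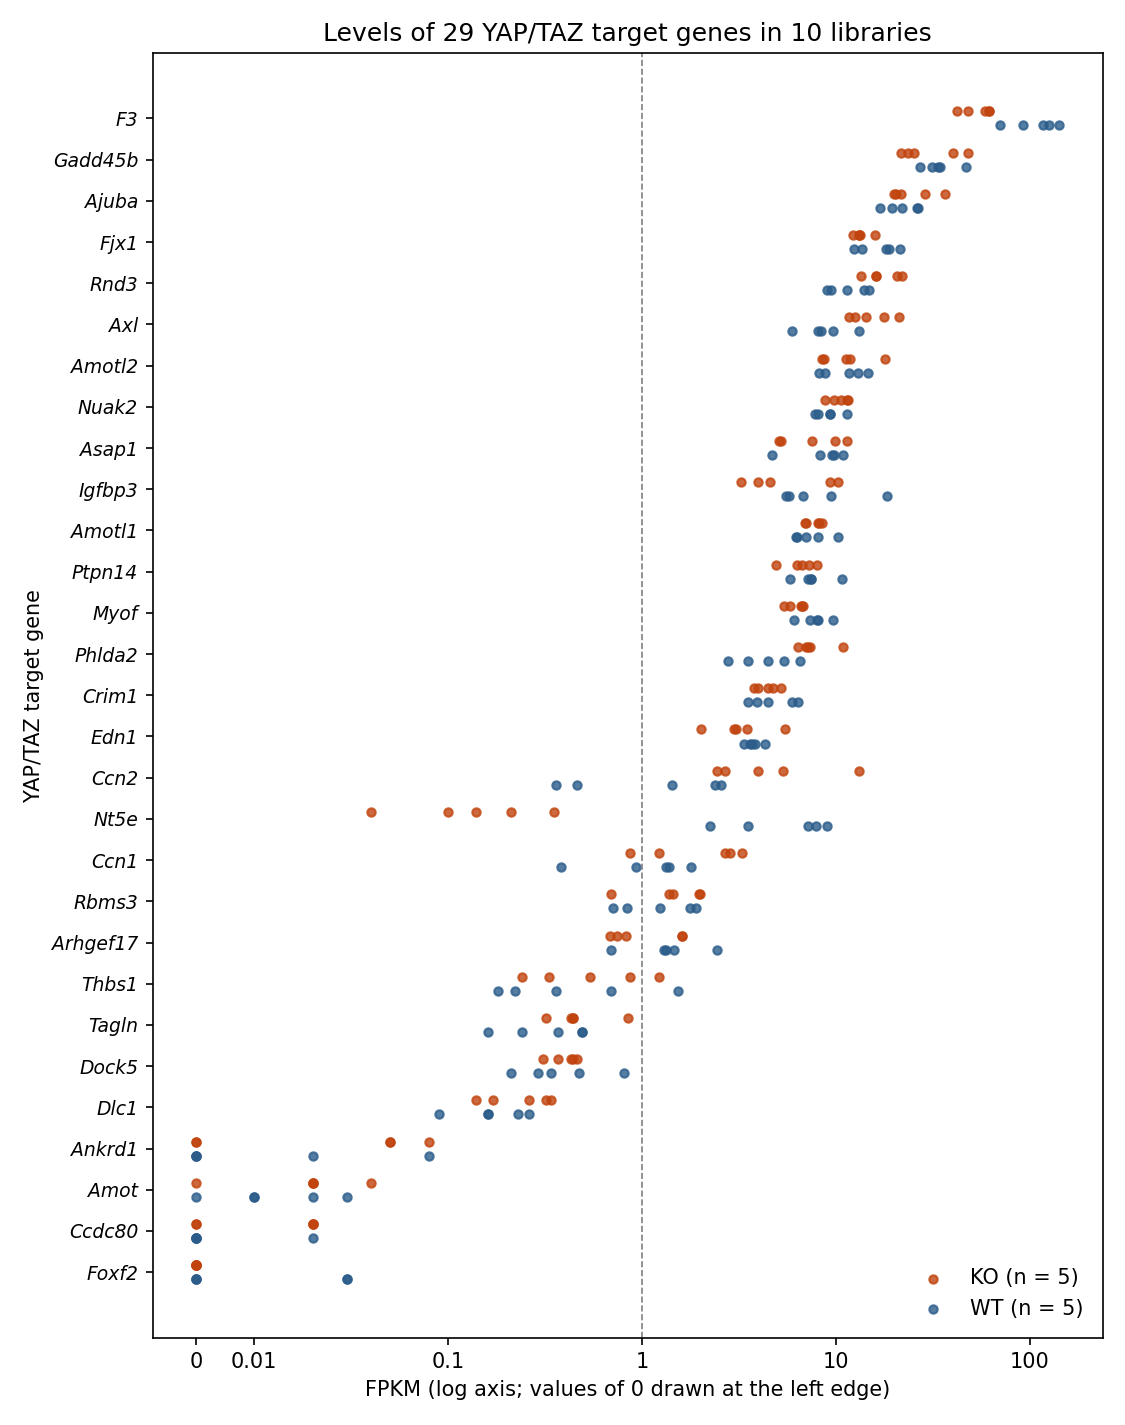
FPKM of each of the 29 target genes (log axis) in the 5 KO libraries (orange, upper row of each gene) and the 5 WT libraries (blue, lower row), ordered by mean level, with values of 0 drawn at the left edge and a dashed line at 1 FPKM. Among genes above the level filter, Nt5e and F3 alone show groups that do not overlap, and Ankrd1, Amot, Ccdc80 and Foxf2 lie near 0 in both groups.

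Promoter sequence was looked at because YAP and TAZ act through TEAD, whose core motif is GGAATG. RefSeq start sites on GRCm38.p6, from 250 bases before to 50 bases after each start, were at hand for 19 of the 29 genes. The motif GGAATG or its reverse complement CATTCC was found in promoters of 8 of these genes, Ptpn14, Ccn1, Axl, Amotl2, Edn1, Ajuba, Crim1 and Ankrd1, and in 14.7% of all 32851 promoters in that table. The AP-1 motif TGANTCA, which reads the same on both strands, was found in 1, F3, and in 7.81% of all promoters. Of the 5 genes that passed the test described further on, Axl alone held the TEAD motif in this window, F3 held the AP-1 motif, and Phlda2, Rnd3 and Nt5e held neither. The promoters of these 5, and of Ccn1, Ajuba and Ankrd1 as genes with the TEAD motif that did not pass or were not tested, are shown with each match to either motif in capitals. A match describes letters only, and no match says only that these letters are not in this window.
Axl, chr7:25788684-25788983, minus strand: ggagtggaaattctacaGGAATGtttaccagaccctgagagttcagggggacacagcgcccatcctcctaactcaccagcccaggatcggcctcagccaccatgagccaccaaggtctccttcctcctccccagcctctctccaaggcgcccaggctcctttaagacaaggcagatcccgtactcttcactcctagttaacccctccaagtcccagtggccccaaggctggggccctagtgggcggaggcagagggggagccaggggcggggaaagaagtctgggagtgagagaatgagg
Ccn1, chr3:145649936-145650235, minus strand: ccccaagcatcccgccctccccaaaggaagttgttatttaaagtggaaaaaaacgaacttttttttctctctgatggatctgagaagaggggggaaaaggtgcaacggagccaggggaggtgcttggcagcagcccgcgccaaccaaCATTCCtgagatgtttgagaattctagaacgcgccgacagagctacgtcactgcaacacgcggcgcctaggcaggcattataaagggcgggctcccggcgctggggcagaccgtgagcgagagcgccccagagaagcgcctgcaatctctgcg
Ajuba, chr14:54577612-54577911, minus strand: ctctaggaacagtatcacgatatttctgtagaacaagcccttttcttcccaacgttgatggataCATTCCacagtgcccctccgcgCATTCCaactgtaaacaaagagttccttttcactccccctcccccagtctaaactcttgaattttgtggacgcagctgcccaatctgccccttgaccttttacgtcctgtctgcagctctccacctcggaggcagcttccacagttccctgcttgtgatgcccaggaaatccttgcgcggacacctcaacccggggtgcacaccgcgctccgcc
Ankrd1, chr19:36119795-36120094, minus strand: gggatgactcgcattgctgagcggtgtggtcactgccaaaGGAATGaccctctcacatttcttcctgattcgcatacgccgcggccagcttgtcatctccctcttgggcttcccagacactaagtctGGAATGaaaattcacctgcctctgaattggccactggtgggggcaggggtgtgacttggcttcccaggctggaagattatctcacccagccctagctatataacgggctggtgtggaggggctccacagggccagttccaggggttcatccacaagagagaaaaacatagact
F3, chr3:121723287-121723586, plus strand: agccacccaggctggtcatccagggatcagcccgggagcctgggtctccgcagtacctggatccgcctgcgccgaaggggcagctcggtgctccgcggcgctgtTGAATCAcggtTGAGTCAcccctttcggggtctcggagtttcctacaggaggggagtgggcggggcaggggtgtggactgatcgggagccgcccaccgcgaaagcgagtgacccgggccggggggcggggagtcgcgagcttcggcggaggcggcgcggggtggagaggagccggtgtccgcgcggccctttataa
Nt5e, chr9:88327359-88327658, plus strand: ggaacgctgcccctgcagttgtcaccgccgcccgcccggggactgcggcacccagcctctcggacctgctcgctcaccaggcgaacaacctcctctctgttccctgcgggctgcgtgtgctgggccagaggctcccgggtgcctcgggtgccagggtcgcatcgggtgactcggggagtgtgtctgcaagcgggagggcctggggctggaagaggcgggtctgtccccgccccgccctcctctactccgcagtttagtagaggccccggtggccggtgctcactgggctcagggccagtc
Phlda2, chr7:143502475-143502774, minus strand: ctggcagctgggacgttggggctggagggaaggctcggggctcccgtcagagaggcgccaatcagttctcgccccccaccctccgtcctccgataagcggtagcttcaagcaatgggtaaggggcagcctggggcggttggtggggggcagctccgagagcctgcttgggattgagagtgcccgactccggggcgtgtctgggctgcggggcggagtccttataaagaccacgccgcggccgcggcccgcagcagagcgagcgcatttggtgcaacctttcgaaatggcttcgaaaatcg
Rnd3, chr2:51149062-51149361, minus strand: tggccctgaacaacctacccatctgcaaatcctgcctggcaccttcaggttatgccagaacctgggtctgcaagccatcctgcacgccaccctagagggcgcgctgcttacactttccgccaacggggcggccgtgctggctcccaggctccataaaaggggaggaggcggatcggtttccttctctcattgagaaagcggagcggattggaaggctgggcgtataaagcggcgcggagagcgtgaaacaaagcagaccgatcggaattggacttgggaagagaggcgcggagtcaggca

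The TEAD motif began 233 bases before the start in Axl, 103 bases before it in Ccn1, 186 and 164 bases before it in Ajuba, and 210 and 123 bases before it in Ankrd1. F3 had AP-1 motifs 146 and 135 bases before its start and no TEAD motif in this window. Ankrd1, with a pair of TEAD motifs, was near unread in this epithelium, while F3, with none in the window, was the most abundant of the 29.

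For KO against WT, limma was run on log2(FPKM + 1) for the 11386 genes that reached 1 FPKM in 5 or more libraries, with Benjamini-Hochberg adjustment over all of them and a threshold of 0.05. All log2 fold changes are KO minus WT of these values, and the added 1 shrinks those of low genes. Of the 29 targets 21 passed the level filter, among them Nt5e, which did so through its WT libraries alone. Axl, Phlda2 and Rnd3 rose, Nt5e and F3 fell, and 16 did not pass the test. Among all tested genes 7.9% were called higher and 4.96% lower in KO, so 3 and 2 of 21 lie near the background. Nt5e could enter the test only because it was high in WT, and F3 alone of the other targets fell. With no filter, the limma adjusted p was above the threshold for Axl (0.0884), Phlda2 (0.0913) and Rnd3 (0.110), and under it for F3 (0.0241) and Nt5e (0.00147). In that fit 1.85% of all genes were called higher and 1.69% lower. The median log2 fold change was -0.09 over the 21 targets and 0.06 over all tested genes. Over all 29 targets with no filter the median was 0.01, with 16 positive and 13 negative differences, and over all rows read in any library it was 0.00.

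**Figure D2:**
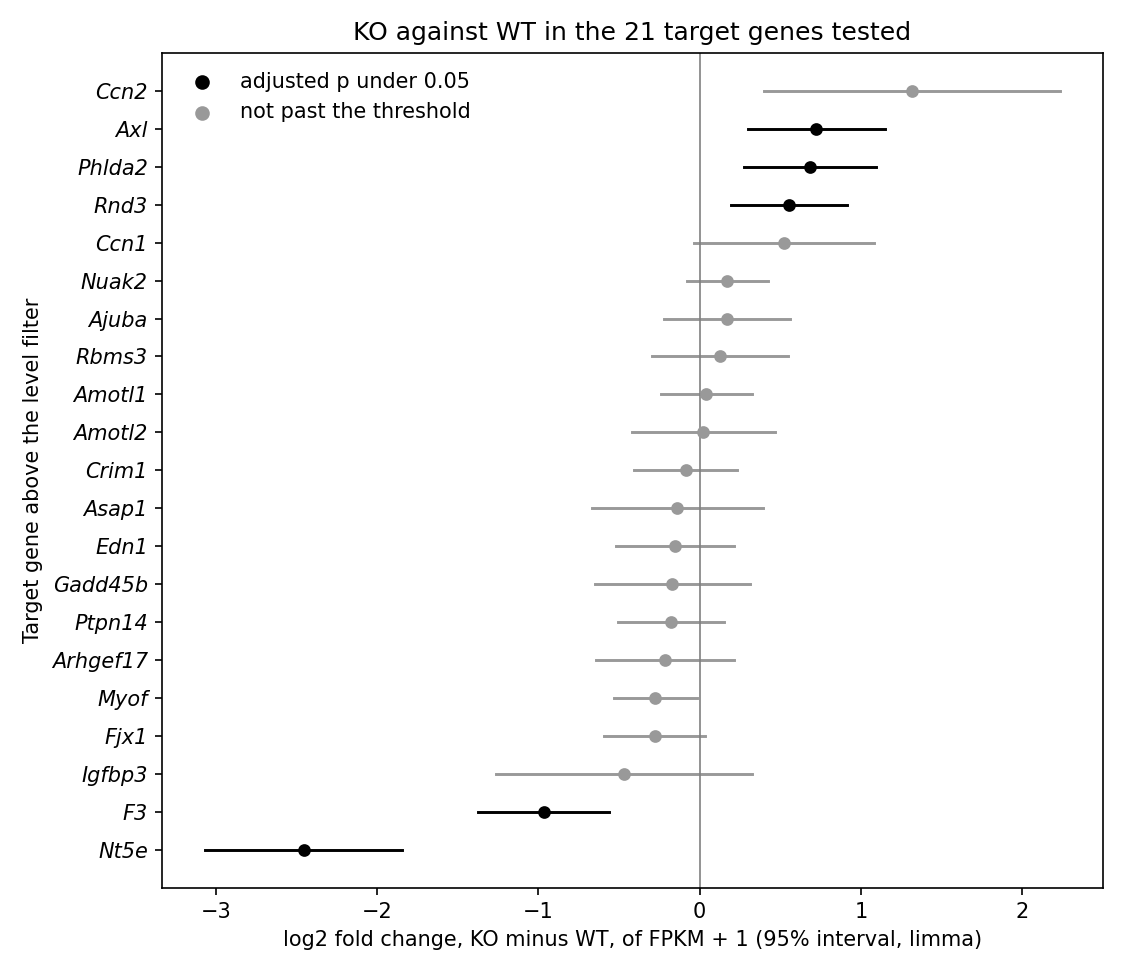
Log2 fold change, KO minus WT, of FPKM + 1 for the 21 target genes above the level filter, with 95% intervals from limma (5 KO and 5 WT libraries). Black marks the 5 genes past an adjusted p of 0.05: Axl, Phlda2 and Rnd3 to the right of 0, F3 and Nt5e to the left. Ccn2 has the highest estimate, with an interval from 0.40 to 2.23.

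The 3 targets grouped here as cell surface genes passed the test, Axl higher and Nt5e and F3 lower in KO. Of all tested genes 7.9% were called higher and 4.96% lower. Nt5e could pass only as lower, and so small a group shows no property of cell surface targets. Nt5e, the ectoenzyme CD73 that makes adenosine, was at 0.10, 0.35, 0.04, 0.14 and 0.21 FPKM in KO 1 to 5 and at 9.01, 7.85, 2.23, 7.20 and 3.52 FPKM in WT 1 to 5. The highest KO library lay far below the lowest WT library, and the KO mean was 2.82% of the WT mean (0.168 ± 0.119 FPKM in KO and 5.96 ± 2.93 FPKM in WT; SD, n = 5 each). The log2 fold change was -2.46 (SE 0.28; limma adjusted p = 0.000209), and 1.04e-05 to 0.00109 was the range of the adjusted p when a single library was left out and the tested genes were kept as they were. Without 1 of the WT libraries, only 4 libraries reach 1 FPKM, so Nt5e would then miss the level filter. Having passed that filter through WT alone, it had to differ, and its test is given as a description.

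F3 was at 48.1, 61.4, 58.9, 42.1 and 61.7 FPKM in KO 1 to 5 and at 141.7, 125.8, 70.3, 92.2 and 116.8 FPKM in WT 1 to 5. The groups did not overlap, though WT 3 came near the KO libraries. KO lay below WT without overlap in 3.88% of all tested genes and in 2 of the 21 targets, F3 and Nt5e, and above it in 6.62% of all tested genes and in none of the targets. For Nt5e this followed from the level filter, so F3 alone can be set beside that share. The KO mean of F3 was 54.4 ± 8.84 FPKM and the WT mean 109 ± 28.3 FPKM (SD, n = 5 each). This is a log2 fold change of -0.97 with an SE of 0.19 (limma, adjusted p = 0.00619). This call held without each single library (adjusted p = 0.00134 to 0.0195), and was lost among the libraries of low Dbp described further on (0.170).

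Axl, a receptor tyrosine kinase for the ligand GAS6, was at 21.04, 17.8, 11.7, 12.5 and 14.2 FPKM in KO 1 to 5 and at 13.1, 9.66, 8.38, 8.04 and 5.96 FPKM in WT 1 to 5. All KO libraries but 3 and 4 lay above all WT libraries, and the overlap came from WT 1. The means were 15.4 ± 3.90 FPKM in KO and 9.03 ± 2.63 FPKM in WT (SD, n = 5 each), 1.71 times as high in KO. On the log2 scale the difference was 0.72 with an SE of 0.20 (limma, adjusted p = 0.0325). The limma adjusted p was above 0.05 without KO 1 (0.0708), KO 2 (0.0665), KO 5 (0.0599), WT 3 (0.0551), WT 4 (0.0600) or WT 5 (0.0798).

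The secreted targets did not pass the test, and the pair of matricellular genes that usually report on YAP had the highest log2 fold changes among them. Ccn2, connective tissue growth factor, was at 5.32, 13.2, 2.42, 3.95 and 2.67 FPKM in KO 1 to 5 and at 2.39, 2.56, 0.46, 1.42 and 0.36 FPKM in WT 1 to 5. KO 2 stood apart, and the groups overlapped only in that WT 2 lay above KO 3. The means were 5.50 ± 4.43 FPKM in KO and 1.44 ± 1.03 FPKM in WT (SD, n = 5 each). On the log2 scale the difference was 1.32 with an SE of 0.41 (limma, adjusted p = 0.0615, and 0.0792 without KO 2). Without WT 2 the limma adjusted p was 0.0447; without any other single library it was 0.0602 to 0.142. It also came under 0.05 with quantiles (limma adjusted p = 0.0491) and with plain empirical Bayes (0.0497), but not with median ratios (0.0583). A gene on the opposite strand, Gm15270, overlaps the exons of Ccn2, and without strand their reads cannot be told apart.

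Ccn1, which codes for CYR61, was at 0.87, 3.29, 2.68, 1.22 and 2.83 FPKM in KO 1 to 5 and at 1.38, 1.33, 0.38, 1.78 and 0.93 FPKM in WT 1 to 5. The groups overlapped, with KO 2, 3 and 5 above all WT libraries. The log2 fold change was 0.52 (SE 0.26; limma adjusted p = 0.192), with a 95% interval of -0.03 to 1.08.

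The other secreted and matrix genes had intervals that covered 0. Igfbp3, a carrier of insulin-like growth factors, was at 6.26 ± 3.25 FPKM in KO and 9.16 ± 5.37 FPKM in WT. Edn1, endothelin 1, was at 3.40 ± 1.28 FPKM in KO and 3.76 ± 0.358 FPKM in WT. Crim1, a membrane protein that binds bone morphogenetic proteins, was at 4.42 ± 0.580 FPKM in KO and 4.84 ± 1.25 FPKM in WT, and its exons overlap Fez2 on the opposite strand. Fjx1, the mouse four-jointed protein, was at 13.5 ± 1.38 FPKM in KO and 16.9 ± 3.77 FPKM in WT (SD, n = 5 each in all 4). In this group of 8 genes, 6 were tested, 0 passed in limma, and 1, Ccn2, had an unadjusted p under 0.05. Beside the 7.9% of all tested genes called higher and 4.96% lower (19.1% and 10.7% unadjusted), these counts lie near the background.

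Among the targets that feed back on the pathway or sit at junctions, none of the 5 tested passed in limma, and none had an unadjusted p under 0.05. Of all tested genes 7.9% were called higher and 4.96% lower, and 19.1% and 10.7% at an unadjusted p under 0.05. In so small a group a count of 0 lies near that background. Amotl1 and Amotl2, angiomotins that hold YAP at junctions and in the cytoplasm, were at 7.71 ± 0.729 and 11.6 ± 3.77 FPKM in KO and at 7.56 ± 1.67 and 11.2 ± 2.73 FPKM in WT (SD, n = 5 each). Their log2 fold changes were 0.04 (95% interval -0.24 to 0.32) and 0.02 (-0.42 to 0.46), and both turned negative after scaling by median ratios or quantiles. Ptpn14, a phosphatase that retains YAP in the cytoplasm, was at 6.62 ± 1.13 FPKM in KO and 7.69 ± 1.81 FPKM in WT, and Nuak2, a kinase related to AMPK, at 10.4 ± 1.16 FPKM in KO and 9.15 ± 1.41 FPKM in WT (SD, n = 5 each). The limma intervals were -0.51 to 0.15 for Ptpn14 and -0.08 to 0.42 for Nuak2, so a change of either by 1 log2 unit lies outside them.

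Ajuba was at 28.6, 36.4, 20.3, 21.7 and 20 FPKM in KO 1 to 5 and at 26.2, 21.8, 19.5, 26.6 and 16.8 FPKM in WT 1 to 5. Only KO 1 and KO 2 lay above all WT libraries, and the log2 fold change was 0.17 (SE 0.18; limma adjusted p = 0.561).

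Of the genes of the cytoskeleton and membrane, Rnd3 rose. Rnd3, a small GTP-binding protein that acts on the actin cytoskeleton, was at 16.04, 20.6, 16.04, 13.5 and 21.9 FPKM in KO 1 to 5 and at 11.4, 14.8, 9.38, 14.0 and 9.01 FPKM in WT 1 to 5. KO 4 alone fell among the WT libraries. The means were 17.6 ± 3.51 FPKM in KO and 11.7 ± 2.62 FPKM in WT (SD, n = 5 each). This is a log2 fold change of 0.55 with an SE of 0.16 (limma, adjusted p = 0.0454). The call was close to the threshold: the adjusted p was above 0.05 after scaling by median ratios (0.0679) or quantiles (0.0741), and without KO 1 (0.0695), KO 2 (0.0928), KO 3 (0.0696), KO 5 (0.105), WT 1 (0.0949), WT 3 (0.0876) or WT 5 (0.116).

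Myof, a ferlin of membrane repair, was at 6.24 ± 0.617 FPKM in KO and 7.82 ± 1.32 FPKM in WT (SD, n = 5 each), and did not pass (limma adjusted p = 0.142, and 0.0446 without WT 2). Asap1, a GTPase-activating protein for Arf, was at 5.09 to 11.4 FPKM in KO and 4.66 to 10.9 FPKM in WT. Arhgef17, a guanine nucleotide exchange factor, was at 0.68 to 1.60 FPKM in KO and 0.69 to 2.43 FPKM in WT. For both genes the KO range overlapped the WT range over most of its length.

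Of the regulators in nucleus and cytoplasm, Phlda2 rose. Phlda2, an imprinted gene for a small pleckstrin-homology protein, was at 7.03, 6.37, 10.9, 7.37 and 7.17 FPKM in KO 1 to 5 and at 5.38, 4.44, 3.53, 6.53 and 2.77 FPKM in WT 1 to 5. KO 3 stood above the other KO libraries, and WT 4 lay just above KO 2. The means were 7.76 ± 1.78 FPKM in KO and 4.53 ± 1.49 FPKM in WT (SD, n = 5 each). The log2 fold change was 0.69 with an SE of 0.19 (limma, adjusted p = 0.0347). The limma adjusted p was above 0.05 without KO 1 (0.0560), KO 3 (0.0749), KO 4 (0.0509), KO 5 (0.0625), WT 3 (0.0649) or WT 5 (0.0816).

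Gadd45b was at 23.6, 40.1, 21.7, 47.9 and 25.2 FPKM in KO 1 to 5 and at 46.7, 26.9, 33.6, 31.4 and 34.4 FPKM in WT 1 to 5. The KO range enclosed the WT range. Rbms3, an RNA-binding protein, was at 0.69 to 2.00 FPKM in KO and 0.71 to 1.90 FPKM in WT. Neither passed in limma (adjusted p = 0.645 for Gadd45b and 0.706 for Rbms3).

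**Figure D3:**
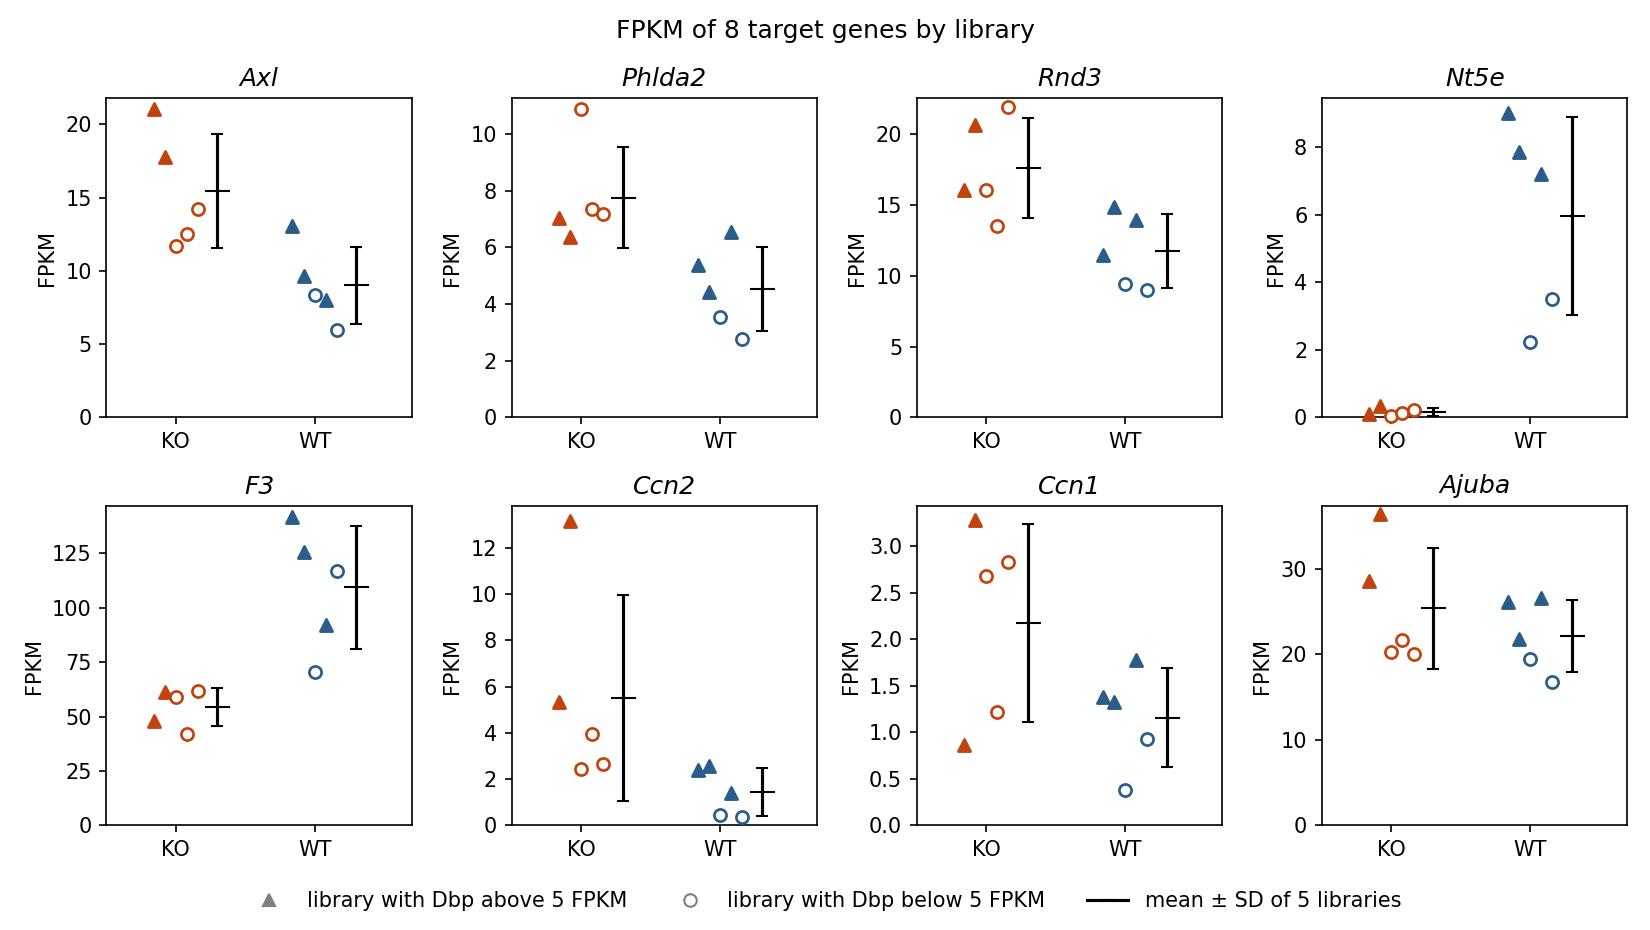
FPKM of 8 target genes in each library, with KO (orange) left of WT (blue), triangles for libraries with Dbp above 5 FPKM, open circles for those below, and the mean ± SD of 5 libraries as a bar beside each group. Axl, Phlda2, Rnd3, Ccn2 and Ccn1 have higher means in KO, Nt5e and F3 lower ones without overlap, and the triangles of Ccn2 and Ajuba lie above the circles within each genotype.

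The libraries of each group differed widely among themselves in genes of the circadian clock. Dbp, a transcription factor under direct control of the clock, was at 14.5, 8.45, 0.84, 0.56 and 0.38 FPKM in KO 1 to 5 and at 22.6, 12.04, 1.25, 16.4 and 1.73 FPKM in WT 1 to 5. KO 1 and 2 and WT 1, 2 and 4 thus had Dbp above 5 FPKM, and the sources used here do not say when tissue was collected. KO was therefore also compared with WT within the libraries of high Dbp (2 KO and 3 WT) and within those of low Dbp (3 KO and 2 WT). These classes do not make KO and WT equal in the clock genes. The 4 clock genes looked at, Dbp, Nr1d1, Per3 and Tef, had negative log2 fold changes, with a median of -0.97, and 0 passed in limma (0 at an unadjusted p under 0.05). These 4 were high in the same libraries of each genotype, so their signs are not separate observations. Within the low class Dbp itself was lower in KO without overlap, at 0.84, 0.56 and 0.38 FPKM against 1.25 and 1.73 FPKM in WT. Whether the clock has a part in the target genes' differences was not tested.

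Ccn2 was separated within both classes. At high Dbp it was at 5.32 and 13.2 FPKM in KO, against 2.39, 2.56 and 1.42 FPKM in WT, and at low Dbp at 2.42, 3.95 and 2.67 FPKM in KO, against 0.46 and 0.36 FPKM in WT. Its log2 fold change was 1.62 at high Dbp (limma adjusted p = 0.0441) and 1.49 at low Dbp (0.0124), where 1.81% and 1.78% of all tested genes were called higher, and 2.02% and 1.59% lower. With the clock score, the mean log2 value of Dbp, Nr1d1, Per3 and Tef, as a covariate it was 1.89 (limma adjusted p = 0.00242; 0.00181 to 1.00 over all alternatives).

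Axl, Rnd3, Ccn2 and Ajuba were higher in KO without overlap within both classes, and F3 and Nt5e were lower in the same sense. These are 4 and 2 of the 21 tested targets, and the same holds for 14.6% of all tested genes with KO higher and 6.43% with KO lower, so the counts lie near the background. For Nt5e the lack of overlap in either class again followed from the level filter. The log2 fold change of Axl was 0.88 at high and 0.77 at low Dbp, and neither class passed alone (limma adjusted p = 0.0752 and 0.0600). Phlda2 had 0.27 at high and 1.17 at low Dbp, with overlapping groups at high Dbp. It passed at low Dbp alone (limma adjusted p = 0.0279, against 0.483 at high Dbp). Ajuba, with the clock score as covariate, had a log2 fold change of 0.44 (limma adjusted p = 0.0432; 0.0432 to 1.00 over all alternatives). The sign was the same in both classes for 17 of the 21 genes and differed for Igfbp3, Edn1, Crim1 and Amotl2.

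Within each genotype, 3 of the 21 tested targets, Ccn2, Ajuba and Rbms3, were higher in every library of high Dbp than in every library of low Dbp, as were 8.32% of all tested genes. Nt5e showed the same order in WT, at 9.01, 7.85 and 7.20 FPKM against 2.23 and 3.52 FPKM, but not in KO, where it was near 0 throughout.

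**Figure D4:**
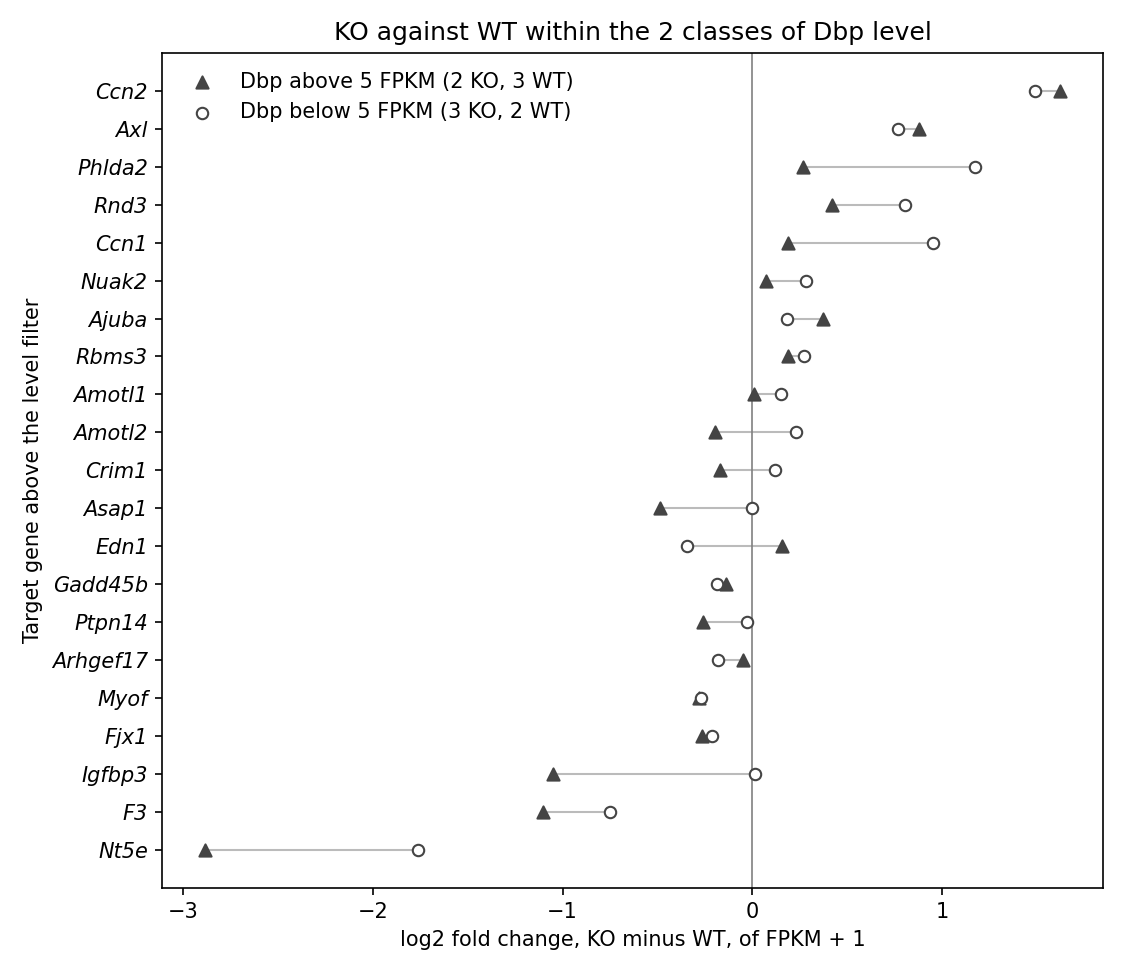
Log2 fold change, KO minus WT, of FPKM + 1 for the 21 tested targets, within the libraries with Dbp above 5 FPKM (triangles; 2 KO, 3 WT) and below (open circles; 3 KO, 2 WT). Ccn2 lies at 1.62 and 1.49 in the 2 classes, Nt5e at -2.88 and -1.76, and Phlda2 and Igfbp3 differ most between the classes among the rest.

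Markers of other cells were counted because several targets, such as Foxf2, Ccdc80 and Tagln, are best known from mesenchyme and muscle. In bulk tissue, fewer cells of a type and less RNA per cell cannot be told apart. Of 8 fibroblast markers, 7 had a mean under 0.1 FPKM, Col1a2, Pdgfrb and Dpt were at 0 in all libraries, and the summed level was 0.07 to 1.13 FPKM in KO and 4.44 to 13.6 FPKM in WT, nearly all of it Dcn. Dcn was at 0.06 to 1.12 FPKM in KO, against 4.42 to 13.6 FPKM in WT. It was the only fibroblast marker that passed the level filter, which its WT libraries met without KO, so its difference is given as a description. The summed levels of 6 endothelial markers (led by Pecam1), 6 smooth muscle markers (Acta2) and 5 skeletal muscle markers (Acta1) were at most 0.61 FPKM in any library. The summed level of 7 immune markers, led by Cd207 of Langerhans cells, was 0.95 to 2.42 FPKM in KO and 0.89 to 4.06 FPKM in WT.

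The basal marker Trp63, the gene of p63 for which the Cre allele is named, was at 22.6 FPKM on average in KO and 38.8 FPKM in WT. Of 7 basal markers Trp63 and Col17a1 fell and none rose, where 4.96% of all tested genes fell and 7.9% rose. The list was mixed, with 3 positive and 4 negative log2 fold changes. Krt5, Krt14 and Krt15 averaged 2227, 915 and 998 FPKM in KO, against 1718, 720 and 915 FPKM in WT, and did not pass in limma. The call of Trp63 held without each single library, whereas that of Col17a1 (limma adjusted p = 0.0444) was lost without KO 3, 4 or 5 or WT 1, 2, 4 or 5 (0.0528 to 0.111). Of 6 suprabasal markers, Sprr3 and Cnfn, proteins of the cornified envelope, rose and Krt78, a keratin, fell, each without overlap. Sprr3 averaged 8574 FPKM in KO and 4895 FPKM in WT, Cnfn 2709 FPKM in KO and 1898 FPKM in WT, and Krt78 392 FPKM in KO and 732 FPKM in WT (limma adjusted p = 0.0219 for Sprr3, 0.0444 for Cnfn and 0.0385 for Krt78). In limma the call of Sprr3 was lost without WT 1 (adjusted p = 0.0544) or WT 5 (0.0604), that of Cnfn with median ratios (0.109) and without any single library but KO 1 (0.0545 to 0.107), and that of Krt78 without KO 2, 3 or 5 or WT 1, 2, 3 or 5 (0.0538 to 0.0988). With no filter the limma adjusted p was above 0.05 for Sprr3 (0.0527), Cnfn (0.0742), Krt78 (0.0979) and Col17a1 (0.109). With the clock score as covariate it was so for Cnfn (0.106) and Col17a1 (0.0699), and with a pseudocount of 5 for Cnfn (0.0523). Each of these calls, and that of Trp63, was also lost at high Dbp, at low Dbp or at both. The summed level of the 7 basal markers overlapped, at 3552 to 5245 FPKM in KO and 3034 to 4926 FPKM in WT. Whether Dcn, Trp63, these suprabasal genes or the cells that express them have a part in the target genes' differences was not tested.

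Few other genes of the pathway passed the test. Of 28 Hippo components, 25 were tested, Stk3, Limd1 and Frmd6 fell and none rose (limma, with 0 higher and 6 lower at an unadjusted p under 0.05). Stk3 is a gene deleted in KO and passed the level filter through its WT libraries alone. Its fall, which is in both counts, was therefore set in advance, and only Limd1 and Frmd6 are calls to set beside the background. The 6 lower genes also include Stk4, the other gene targeted in KO. Its log2 fold change was -0.29 (limma unadjusted p = 0.0300, adjusted p = 0.123). Of all tested genes 7.9% rose and 4.96% fell, and 19.1% were higher and 10.7% lower at an unadjusted p under 0.05. The list had a median log2 fold change of -0.05 against 0.06 over all tested genes. Limd1, a LIM protein of the same family as Ajuba, was at 5.60, 4.98, 3.88, 4.74 and 4.07 FPKM in KO 1 to 5 and at 9.35, 6.95, 6.86, 8.89 and 7.80 FPKM in WT 1 to 5. These groups did not overlap, and the log2 fold change was -0.67 (SE 0.12; limma adjusted p = 0.00383). Frmd6, a FERM-domain protein upstream of the kinases, was at 17.9 ± 1.31 FPKM in KO and 24.3 ± 2.99 FPKM in WT (SD, n = 5 each; limma adjusted p = 0.0229, and 0.0557 without KO 1, 0.0604 without WT 1 and 0.0642 without WT 5). With no filter Frmd6 did not pass (limma adjusted p = 0.0523). Neither gene passed in limma at high Dbp (adjusted p = 0.148 for Limd1 and 0.199 for Frmd6) or at low Dbp (0.0523 and 0.189).

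Yap1 was at 11.9 ± 0.563 FPKM in KO and 13.3 ± 1.77 FPKM in WT, and Wwtr1, the gene of TAZ, at 9.11 ± 2.21 FPKM in KO and 13.2 ± 2.42 FPKM in WT (SD, n = 5 each). Neither passed in limma (adjusted p = 0.408 and 0.0644), though Wwtr1 did, lower in KO, without KO 3 (0.0348) or WT 3 (0.0485) and with quantiles (0.0452). The kinases act on YAP and TAZ protein, which transcript levels do not show.

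A list of 16 other genes reported as targets of YAP and TAZ, several of them genes of DNA replication, had 14 tested members. Of these 12 had a positive and 2 a negative log2 fold change, with a median of 0.50, where 58.6% of all tested genes were positive, with a median of 0.06. Genes of the same process can vary together, so these are not separate signs. Tgfb2 missed the level filter and was lower on average in KO, at 0.386 FPKM against 0.836 FPKM in WT, with overlapping groups. Inhba, also not tested, was at 0.12 FPKM or less in all libraries. Gins1, a subunit of the replicative helicase, rose to 2.27 ± 0.526 FPKM in KO, against 1.22 ± 0.478 FPKM in WT (SD, n = 5 each; limma adjusted p = 0.0425), and none fell (limma; 6 higher and 0 lower at an unadjusted p under 0.05, where all tested genes gave 19.1% and 10.7%). A single call among 14 lies near the 7.9% of all tested genes that rose. The call of Gins1 was lost with median ratios (limma adjusted p = 0.0559), with the clock score as covariate (0.0924), with no filter (0.1002) and without KO 1, 3, 4 or 5 or WT 1, 2 or 5 (0.0671 to 0.103). Birc5, the apoptosis inhibitor survivin, had 5.49 ± 1.65 FPKM in KO and 2.96 ± 1.44 FPKM in WT, Mcm3, a helicase subunit, 9.71 ± 2.98 FPKM in KO and 4.44 ± 3.41 FPKM in WT (SD, n = 5 each), and neither passed (limma adjusted p = 0.0688 and 0.0625). Birc5 passed without KO 2 (limma adjusted p = 0.0494) or WT 3 (0.0217), and Mcm3 without WT 4 (0.00674). Lats2, a kinase of the pathway that is itself a target, was at 1.13 to 1.91 FPKM in KO and 1.03 to 1.95 FPKM in WT, and the ranges overlapped almost entirely.

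The libraries were not alike in how many targets they led. Among the 21 tested targets, KO 2 was the highest KO library for 7 genes, Ccn1, Ccn2 and Ajuba among them, and the lowest for Phlda2 alone. In WT, library 1 was the highest for 9 genes and the lowest for none, and library 3 was the lowest for 11 and the highest for none. Spread between libraries differed by gene: the coefficient of variation of Ccn2 was 80.5% in KO and 72.0% in WT, against 9.45% in KO and 22.1% in WT for Amotl1.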

How the data were processed

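RNA came from esophageal epithelium, peeled with Dispase from muscle and mesenchyme, and was read as paired ends on an Illumina machine, per the labels' protocols. The authors deposited FPKM values per gene with 2 decimals; HISAT2 2.0.1, HTSeq 0.6.1, cutadapt and mm9 are named per the submitters' processing notes, with settings, annotation release and use of strand not given in the sources used here. Depth was estimated as the fragment total at which FPKM of single-exon genes up to 1200 bp become whole fragments (98.4% to 98.7% of values within 0.01 fragments beyond rounding; GENCODE M21 lengths, so fragments per gene are estimates), and it is most limiting for the 4 lowest genes.

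Genes that reached 1 FPKM in 5 or more libraries entered limma 3.58.1 (R 4.3.3) as log2(FPKM + 1), with genotype alone in the model and a robust, trended empirical Bayes step, checked on simulated data. Members, lists and tests were chosen with earlier results of these data known. All 29 members are named, with full values for those past the threshold, Ccn1, Ccn2, Ankrd1, Gadd45b and Ajuba. Further pathway genes are those past the threshold and Stk4, Yap1 and Wwtr1, while Birc5, Mcm3, Lats2, Tgfb2 and Inhba were named after their values were seen. Promoters are RefSeq sequences of GRCm38.p6, a build other than mm9, so they carry no FPKM positions. Of the 10 members without an entry, Ccn2, Thbs1, Ccdc80, Fjx1, Nuak2, Asap1, Arhgef17, Dlc1, Dock5 and Tagln, none is shown. Of the marker lists, 1 is not reported here. Python 3.11.15 with matplotlib 3.10.9 drew the figures.

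Alternatives were a pseudocount of 0.1 or 5, dropping the filter or raising it to 5 FPKM, scaling by quantiles or median ratios, plain empirical Bayes, the replicate number as a block, a clock score and a mesenchymal marker score as covariates, and leaving out each library. The comparisons within Dbp classes were added after seeing the data.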

Additional observations from a re-analysis of the deposited data

Results flagged for a closer look

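Each gene's highest and lowest library was set against the others of its group by Dixon's criterion for groups of 5, for the 21 tested targets in KO and in WT, 42 groups in all. Chance gives about 1 in 20 such groups, and 2 were found. Ccn2 in KO 2, at 13.2 FPKM, stood apart from the other KO libraries, which were at 2.42 to 5.32 FPKM. Phlda2 in KO 3, at 10.9 FPKM, stood apart from the other KO libraries, which were at 6.37 to 7.37 FPKM. KO 2 had Dbp at 8.45 FPKM and KO 3 at 0.84 FPKM.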

How the results depend on the processing

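The number of targets called higher, 3 as reported, was 0 with no filter, 5 with the clock score as covariate and 0 with the mesenchymal score as covariate. It was 1 within the libraries of high Dbp and 2 within those of low Dbp, and 0 to 4 when single libraries were left out. With the clock score 7.75% of all tested genes were called higher and 4.26% lower. The number called lower, 2 as reported, was 1 with a filter at 5 FPKM (which leaves out Nt5e), 0 with the mesenchymal score as covariate, 1 within the libraries of low Dbp, and 2 to 3 when single libraries were left out. The mesenchymal score averages the fibroblast, endothelial and muscle markers, of which Dcn alone passed the level filter, through its WT libraries. In WT the score thus stands mostly for Dcn, and it does not measure mesenchyme at large. It did not overlap between the groups, at 0.01 to 0.08 in KO and 0.12 to 0.18 in WT (mean log2 value). Score and genotype therefore cannot be told apart in that fit, which called 10 genes higher and 10 lower among all tested genes. Stk3 was not called in it (limma adjusted p = 0.076). Of all calls, 61.4% were higher in KO as reported, 46.6% with median ratios and 47.9% with quantiles; the median log2 fold change of all tested genes shifted by less than 0.1. All genes called higher and lower numbered 900 and 565 as reported, 511 and 466 with no filter, 206 and 230 at high Dbp, 203 and 181 at low Dbp, and between 436 and 357 (without WT 5) and 1091 and 679 (without WT 2) when 1 library was left out. They numbered 882 and 485 with the clock score, and 686 and 329 of 6510 genes with the filter at 5 FPKM (10.5% and 5.05%).

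With the replicate number as a block the calls higher were 2 (Axl and Ccn2, with Ccn2 at an adjusted p of 0.00181 in limma), and the calls lower were 2. The numbers do not pair the libraries: deviations of same-numbered libraries correlated at 0.06, 0.42, 0.19, -0.24 and 0.11. Only KO 2 and WT 2 were each other's best match.

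F3, Phlda2, Rnd3, Myof and Nuak2 kept their direction in every alternative, and so did Nt5e, Ccn1 and Ccn2 in every one but the filter at 5 FPKM, under which these 3 genes were not tested. Log2 fold changes that turned were 0.075 for Igfbp3, 0.045 for Fjx1, -0.040 for Axl, -0.16 for Ajuba, 0.36 for Ptpn14, 0.54 for Asap1, 0.70 for Gadd45b and -0.13 for Rbms3 with the mesenchymal score. With the clock score they were 0.091 for Crim1 and 0.071 for Arhgef17. At low Dbp they were 0.014 for Igfbp3 and 0.12 for Crim1, and at high Dbp 0.16 for Edn1 and -0.19 for Amotl2. Amotl1 turned to -0.020 with median ratios and -0.029 with quantiles, and without single libraries ran from -0.016 (WT 3) to 0.14, also turning to -0.010 without WT 2. Amotl2 turned to -0.039 with median ratios, -0.048 with quantiles, -0.13 without KO 4, -0.074 without WT 2 and -0.049 without WT 3. Crim1 ran from -0.17 to 0.0032 without single libraries, turning only without WT 4. The cause was not tested.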
